A study of Mus musculus with 9 samples.

Results

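The genes described here are 10 glutathione transferases of 4 classes, chosen by symbol from a table of 24411 genes: Gsta1, Gsta2, Gsta3 and Gsta4 of the alpha class, Gstp1 and Gstp2 of the pi class, Gstt1 and Gstt2 of the theta class, and the microsomal enzymes Mgst1 and Mgst3. All 10 had a row in the table and all 10 passed the filter on low counts. Poly(A) RNA was sequenced from 9 livers of mice that were 3 months old by the study text, 3 livers in each of 3 genotype groups. The group named cont. carried Atg7 flox/flox without Cre recombinase. The Atg7-KO group carried the same floxed alleles with Alb-Cre, in which the albumin promoter restricts the deletion to cells of the hepatocyte lineage and leaves Atg7 in the other cells of the liver. The Atg7-KO;p62-S351A group, called S351A below, carried in addition a p62 allele with alanine in place of a serine on both copies, in every cell of the animal. For 2 of the 3 S351A livers the genotype entry of the labels names another position of p62 than the title does, and the titles were followed. All 3 groups therefore shared the floxed Atg7 alleles, and each comparison with cont. used the same 3 cont. livers.

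Glutathione transferases join the thiol of glutathione to electrophilic compounds, which makes them more soluble and lets the cell export them. The alpha, pi and theta enzymes are soluble dimers of the cytosol, while the microsomal enzymes are integral membrane proteins of a separate family. Many of these genes are known targets of NRF2, a transcription factor that is held low by KEAP1 and that binds antioxidant response elements together with small MAF proteins. Autophagy degrades p62, and p62 phosphorylated at the serine that S351A removes binds KEAP1 more tightly, so the 3 genotypes ask how far these genes depend on hepatocyte autophagy and on that serine.

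The set holds near-identical copies in the pi class and in the alpha class, and the sequences are shown because they limit how the counts can be read. The coding sequences of Gstp1 and Gstp2 were both 633 bases long, differed at 12 positions and were 98.1% identical. The first 75 coding bases of the 2 genes, read 5′ to 3′ from GENCODE transcripts with the 6 differences in capitals, were as follows.
Gstp1: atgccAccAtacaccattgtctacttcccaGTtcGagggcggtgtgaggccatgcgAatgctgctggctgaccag
Gstp2: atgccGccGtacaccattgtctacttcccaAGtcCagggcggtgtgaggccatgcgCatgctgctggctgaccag
Gsta1 and Gsta2 were 97.5% identical over their coding sequences. Gsta1 was closer still to Gm3776, a protein-coding neighbour that is not among the 10 genes and was added after its values had been seen. Their coding sequences differed at 2 of 672 positions (99.7% identity), and 1 of these differences, in capitals, falls in the first 75 coding bases.
Gsta1: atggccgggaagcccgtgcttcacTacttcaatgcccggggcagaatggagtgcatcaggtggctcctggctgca
Gm3776: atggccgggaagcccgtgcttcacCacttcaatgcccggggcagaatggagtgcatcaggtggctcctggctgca
Cut into windows of 75 bases, the read length in the study text, 86.3% of the windows in coding transcripts of Gsta1 also occurred in transcripts of another gene. The share was 33.5% for Gsta2, 44.5% for Gstp1 and 45.8% for Gstp2, and no window was shared for the other 6 genes. The division of reads within the Gsta1, Gsta2 and Gm3776 cluster and within the pi pair is thus an estimate of the authors' counting program. By contrast, Gstt1 and Gstt2 were 60.8% identical, Gsta1 and Gsta3 74.2%, and Gsta1 and Gsta4 66.5%.

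Library totals ran from 713841 to 15426575 counts, and the 3 S351A libraries were the smallest, so that depth and the p62 mutation cannot be told apart. Levels are CPM, counts relative to the library total, after TMM scaling, which corrects for differences in library composition. A gene was called when edgeR's quasi-likelihood test gave a Benjamini-Hochberg adjusted p under 0.05 over the 11199 genes tested together with a fold change above 1.5. Nothing in the labels says more about the animals than their genotype, and the p-values measure the spread between these 9 livers. Atg7 itself ran from 42.4 to 57.8 CPM in cont., from 28.0 to 30.2 CPM in Atg7-KO and from 21.8 to 24.8 CPM in S351A, lower in all 6 livers with Cre. Xist and Y-linked transcripts read replicate 1 of each group and replicate 3 of cont. as male and the other 5 libraries as female, so cont. held 2 males and 1 female and each other group 1 male and 2 females. A lower level in bulk liver can come from fewer cells of a type or from less RNA per cell, which cannot be told apart here.

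In Atg7-KO against cont., 4 of the 10 genes were called higher and 5 lower, beside 19.9% higher and 18.1% lower among all genes tested (38% in either direction). Gsta1, Gsta2, Gstp2 and Mgst3 rose, Gsta3, Gstp1, Gstt1, Gstt2 and Mgst1 fell, and Gsta4 was not called. Alpha and microsomal classes each had called members in both directions, as had the pi class by the Gstp1 call, which was lost under 18 of 25 alternative settings. The median absolute log2 fold change of the 10 genes was 1.43, against 0.567 over all genes tested. In S351A against cont., 3 genes were called higher (Gsta1, Gstp2 and Mgst3) and 3 lower (Gsta3, Gstt1 and Mgst1), against 15.6% and 13% of all genes (28.6% in either direction). The libraries of Atg7-KO and cont. did not overlap for 4 genes that were higher and 4 that were lower, where 26.7% and 24.9% of all genes did not, and those of S351A and cont. for 3 and 3, where the shares were 19.6% and 18.4%. In S351A against Atg7-KO no member was called, nor were more than 0.00893% of all genes in either direction.

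**Figure D1:**
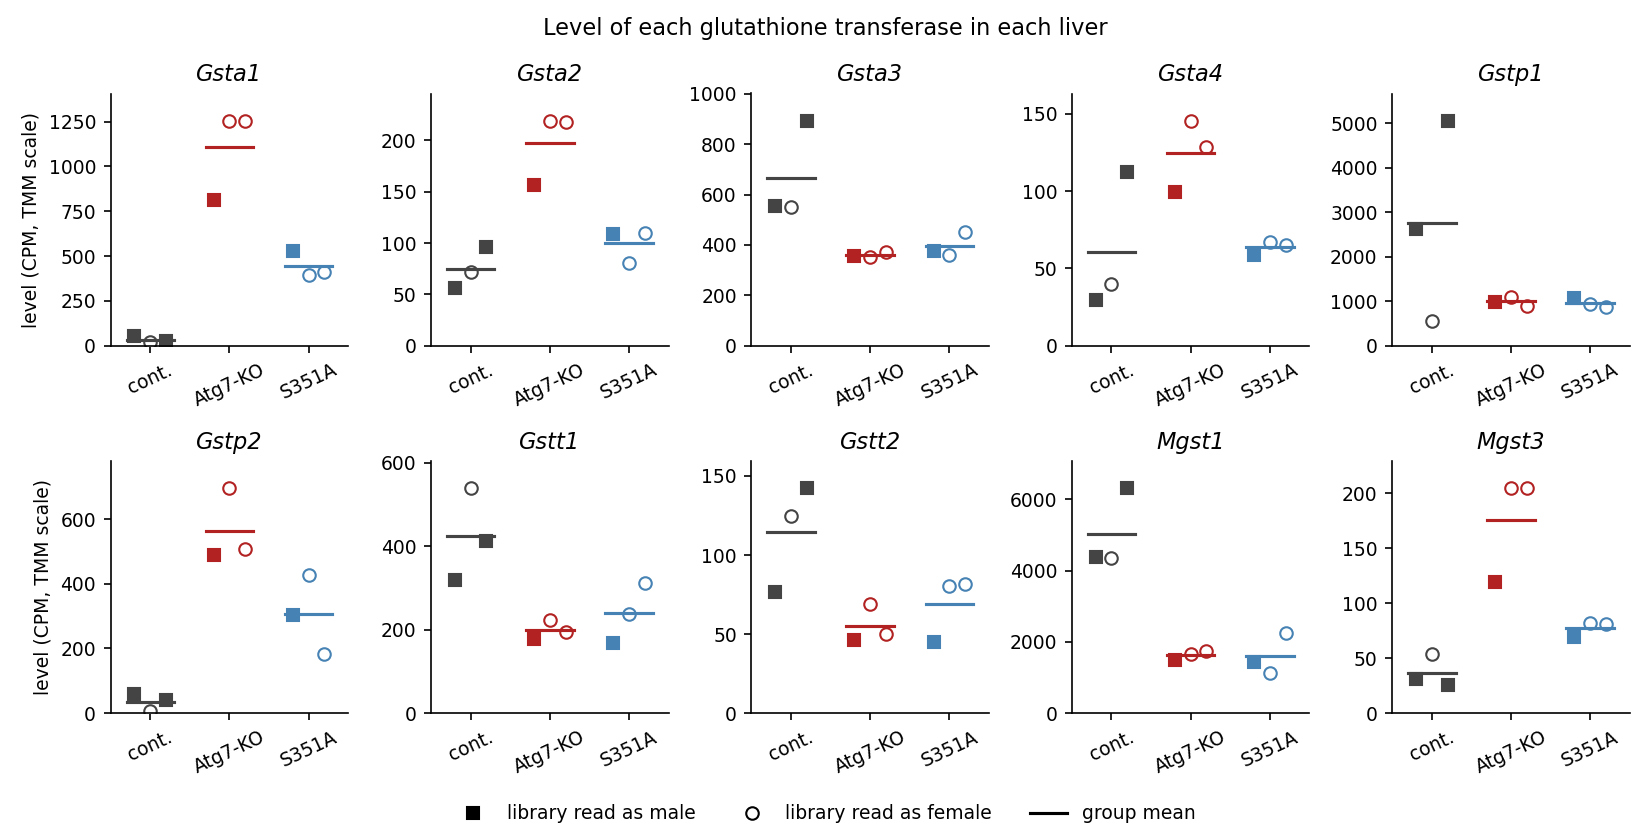
Level of each of the 10 genes in each liver, in CPM on the TMM scale from 0, by group, with squares for libraries read as male, circles for libraries read as female and a line at the group mean. Gsta1, Gsta2, Gstp2 and Mgst3 stood higher in all 3 Atg7-KO livers than in any cont. liver, while Gsta3, Gstt1, Gstt2 and Mgst1 stood lower.

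Gsta1 and Gsta2 encode alpha-class subunits that form the inducible liver enzymes acting on organic hydroperoxides and many xenobiotics. Gsta1 lies at chr9:78230656-78242684 on the + strand of mm10 and Gsta2 at chr9:78331018-78355788 on the opposite strand. Gsta1 stood at 54.0, 19.0 and 28.7 CPM in cont. replicates 1, 2 and 3. It stood at 815, 1256 and 1253 CPM in the Atg7-KO replicates and at 531, 392 and 411 CPM in the S351A replicates. All 3 groups were apart from each other, with Atg7-KO highest and S351A between it and cont. Gsta1 had a log2 fold change of 5.06 (95% interval 4.19 to 5.93, adjusted p 3.97e-06) in Atg7-KO against cont., 33.3-fold, and 99.2% of the genes tested had a lower value. Against cont. the S351A livers were 13.4-fold higher, at 3.74 (2.92 to 4.56, adjusted p 4.23e-05). Gsta1 kept these 2 calls under all 25 alternatives, with log2 fold changes of 3.58 to 6.04 in Atg7-KO and 2.32 to 4.40 in S351A.

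Gsta2 stood at 56.6, 71.5 and 96.5 CPM in cont., at 156, 219 and 218 CPM in Atg7-KO and at 109, 80.7 and 110 CPM in S351A. The Atg7-KO livers were above all others, while S351A overlapped cont. Gsta2 was 2.62-fold higher in Atg7-KO than in cont., a log2 fold change of 1.39 (0.85 to 1.92, adjusted p 0.000948). In S351A the difference from cont. was 0.40 (-0.14 to 0.95, adjusted p 0.252). Scaling by total library size gave 0.91 (adjusted p 0.0121), and leaving the 20 most abundant genes out of the library size gave 0.81 (adjusted p 0.0247).

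Reads of Gsta1 can be given to its copies, so the cluster was also counted as 1 gene in 3 ways. The level of Gm3776 ran from 1.76 to 10.3 CPM in cont., from 416 to 608 CPM in Atg7-KO and from 219 to 298 CPM in S351A, in the same order as Gsta1. Counted as 1 gene, Gsta1 and Gm3776 had a log2 fold change of 5.34 in Atg7-KO and 4.11 in S351A against cont. Gsta1, Gsta2, Gm3776 and Gm10639 counted as 1 gene gave 3.99 and 2.79, and Gsta1 with Gsta2 alone 3.58 and 2.32. Each of these 6 values passed the threshold. The level of Gsta2 on its own is uncertain for the same reason.

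Gsta3 and Gsta4 share no 75-base window with another gene, so their counts do not depend on such a split. Gsta3, whose enzyme detoxifies the epoxide of aflatoxin in mice, lies at chr1:21240589-21265661 on the + strand and overlaps an annotated antisense gene, Gm28836. It stood at 556, 550 and 894 CPM in cont., at 355 and 371 CPM in Atg7-KO replicates 1 and 3 with a mean of 359 ± 10.6 CPM (SD, n = 3) over that group, and at 374, 361 and 453 CPM in S351A. All 6 livers with Cre were below all 3 cont. livers. For Gsta3 the log2 fold change was -0.89 (-1.42 to -0.37, adjusted p 0.0113) in Atg7-KO and -0.75 (-1.28 to -0.22, adjusted p 0.0355) in S351A, both against cont. The call in Atg7-KO was lost without Atg7-KO replicate 2 (adjusted p 0.0507), when scaled by total library size (-0.34, adjusted p 0.236) and when the 20 most abundant genes were left out of it (-0.46, adjusted p 0.132), and also among female (-0.61, adjusted p 0.104) and male livers alone (-1.00, adjusted p 0.488). In S351A it was lost under 13 of 25 alternatives. The value without cont. replicate 3 was -0.48 (adjusted p 0.109), and it was -0.71 and -0.69 without S351A replicate 1 and 2 (adjusted p 0.109 and 0.122). Leaving out a library of Atg7-KO left it at -0.75, with adjusted p from 0.0573 to 0.0628.

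Gsta4, at chr9:78182774-78209349 on the + strand, encodes the alpha-class enzyme that prefers 4-hydroxynonenal, an aldehyde from lipid peroxidation. It stood at 29.2, 40.1 and 113 CPM in cont., at 99.3, 146 and 129 CPM in Atg7-KO and at 58.6, 67.1 and 65.4 CPM in S351A. Replicate 3 of cont. lay within the Atg7-KO range, and the other 2 lay below every liver with Cre. Against cont. the change was 0.99 (0.15 to 1.84, adjusted p 0.0603) in Atg7-KO and 0.03 (-0.86 to 0.92, adjusted p 0.971) in S351A, on the log2 scale. Without cont. replicate 3 the 2 values were 1.82 (adjusted p 0.000192) and 0.86 (adjusted p 0.0257), both called. Gsta4 was also called in Atg7-KO under 9 other alternatives, among them DESeq2 (1.03, adjusted p 0.0483) and limma-voom (1.28, adjusted p 0.0188).

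The pi class is the abundant soluble class of the male mouse liver and is known for high activity toward small electrophiles. Gstp1 lies at chr19:4035407-4037985 and Gstp2 at chr19:4040285-4046023, side by side on the minus strand. Gstp1 stood at 2627, 560 and 5059 CPM in cont. replicates 1, 2 and 3. It stood at 986, 1100 and 896 CPM in Atg7-KO and at 1074, 928 and 871 CPM in S351A. The 2 cont. libraries read as male were above, and the cont. library read as female below, all 6 livers with Cre, which lay close together. The log2 fold change of Gstp1 over all libraries was -1.47 (-2.64 to -0.29, adjusted p 0.0479) in Atg7-KO against cont., and -1.52 (-2.70 to -0.34, adjusted p 0.0526) in S351A against cont. The first was a call and the second was not.

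The Gstp1 call in Atg7-KO was lost under 18 of 25 alternatives and reversed under 1. It did not outlast leaving out any library but cont. replicate 2, with log2 fold changes between -1.55 and -0.68 and adjusted p from 0.0613 to 0.264 without each of the other 8. The smallest change, -0.68 (adjusted p 0.264), was found without cont. replicate 3. Among the 5 libraries read as female alone, a choice made after seeing the data, Gstp1 was higher in Atg7-KO than in cont. by 0.83 (adjusted p 0.0426). That fit holds 1 cont. library and measures no spread within cont., so the value is given as a description and not as a call. The value in S351A was 0.68 (adjusted p 0.115). Among the 4 libraries read as male the differences were -1.93 in Atg7-KO and -1.84 in S351A, where each genotype with Cre holds 1 library. With sex as a covariate over all 9 libraries the change in Atg7-KO was -0.89 (adjusted p 0.247).

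Gstp2, the copy with far fewer reads in cont., stood at 58.5, 7.75 and 40.9 CPM in cont. The Atg7-KO livers held 489, 696 and 509 CPM and the S351A livers 304, 428 and 184 CPM. Every liver with Cre was above every cont. liver, and every S351A liver was below every Atg7-KO liver. The log2 fold change of Gstp2 was 4.00 (2.76 to 5.24, adjusted p 0.000215) in Atg7-KO, 16.0-fold, and 3.11 (1.91 to 4.32, adjusted p 0.00165) in S351A, both against cont. Within the sexes, where each fit has an arm of 1 library, it was 3.33 among libraries read as male and 6.27 among those read as female in Atg7-KO, and 2.62 and 5.29 in S351A. Counted as 1 gene, Gstp1 and Gstp2 had a log2 fold change of -0.84 (adjusted p 0.239) in Atg7-KO and -1.14 (adjusted p 0.132) in S351A, since Gstp1 held most of the reads. The summed pair ran from 568 to 5100 CPM in cont., from 1405 to 1797 CPM in Atg7-KO and from 1055 to 1379 CPM in S351A.

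**Figure D2:**
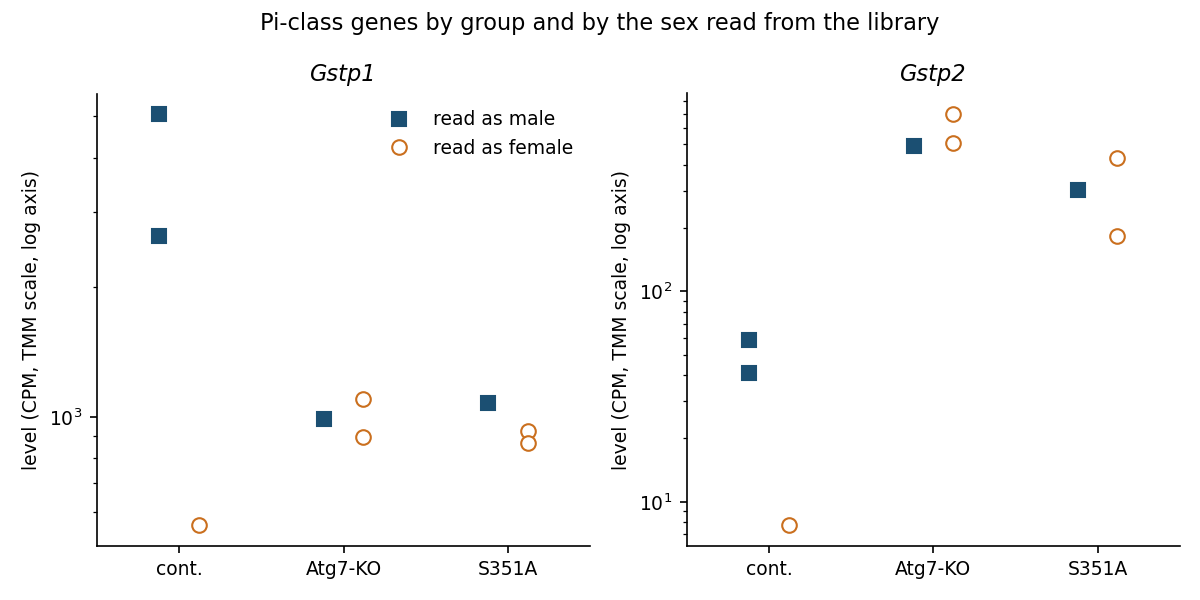
Level of Gstp1 and Gstp2 in each liver, in CPM on a log axis, by group, with squares for libraries read as male and circles for libraries read as female. The cont. libraries read as male held 2627 and 5059 CPM of Gstp1 and the one read as female 560 CPM, while all livers with Cre lay between 871 and 1100 CPM.

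In cont., Gstp1 was higher in the libraries read as male than in the one read as female by a log2 value of 2.78 (adjusted p 0.0563 by edgeR's quasi-likelihood test), and Gstp2 by 2.66 (adjusted p 0.151). The sex difference of Gstp1 (male minus female) in Atg7-KO differed from that in cont. by -2.80 (p 0.00233, adjusted p 0.543), and in S351A by -2.52 (p 0.00429, adjusted p 1.00), neither past the threshold. Gstp2 gave differences of -2.96 (adjusted p 0.714) and -2.66 (adjusted p 1.00). A list of male-biased liver genes moved too: of 10 tested 8 were called lower in Atg7-KO and 5 in S351A, beside 18.1% and 13% of all genes. The summed level of that list ran from 429 to 36110 CPM in cont., from 1500 to 4744 CPM in Atg7-KO and from 1720 to 9423 CPM in S351A. Of 6 tested female-biased genes 1 was called lower in Atg7-KO and 0 in S351A. Because groups and sexes are unbalanced, the part of sex in the Gstp1 values was not tested beyond these fits.

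The theta class handles small halogenated compounds and sulfate esters. Gstt1 lies at chr10:75783813-75798584 and Gstt2 at chr10:75831114-75837424, both on the minus strand. Gstt1 stood at 319, 539 and 413 CPM in cont., at 177, 223 and 194 CPM in Atg7-KO and at 169, 238 and 312 CPM in S351A. No liver with Cre reached the lowest cont. liver, although S351A replicate 3 came close. For Gstt1 the log2 fold change was -1.10 (-1.69 to -0.51, adjusted p 0.00691) in Atg7-KO and -0.82 (-1.41 to -0.23, adjusted p 0.0395) in S351A, both against cont. The S351A call was lost under 12 of 25 alternatives, among them leaving out cont. replicate 2 (-0.61, adjusted p 0.123) or 3 (-0.84, 0.0527), and S351A replicate 1 (-0.62, 0.153) or 2 (-0.82, 0.113). Without a library of Atg7-KO the value stayed at -0.82 with adjusted p from 0.0583 to 0.0651.

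Gstt2 stood at 76.9, 125 and 142 CPM in cont., at 46.4, 69.3 and 50.3 CPM in Atg7-KO and at 44.8, 80.7 and 81.4 CPM in S351A. All Atg7-KO livers were below cont., while 2 S351A livers lay above the lowest cont. liver. Its log2 fold change was -1.06 (-1.68 to -0.44, adjusted p 0.0106) in Atg7-KO, and -0.95 (adjusted p 0.0559) without Atg7-KO replicate 1. In S351A it was -0.75 (-1.39 to -0.11, adjusted p 0.0762), and it was called under 4 of 25 alternatives, with values from -0.96 (adjusted p 0.0239), without cont. replicate 1, to -0.74 (adjusted p 0.0229), with the replicate number as a block. Both theta genes lost the Atg7-KO call with total library size (-0.56 and -0.51, adjusted p 0.107 and 0.133). Gstt3, the third theta gene tested, was lower as well, at -1.79 (adjusted p 0.00527) in Atg7-KO and -1.61 (adjusted p 0.0231) in S351A.

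Mgst1 and Mgst3 are membrane proteins. Mgst1 sits in the endoplasmic reticulum and the outer mitochondrial membrane and acts as transferase and peroxidase, and Mgst3 has peroxidase activity and can join glutathione to leukotriene A4. Mgst1, at chr6:138140316-138156755 on the + strand, stood at 4372, 4347 and 6315 CPM in cont. Its level was 1482, 1651 and 1733 CPM in Atg7-KO and 1434, 1126 and 2262 CPM in S351A. Every liver with Cre held less than every cont. liver. Mgst1 was 3.09-fold lower in Atg7-KO, a log2 fold change of -1.63 (-2.29 to -0.96, adjusted p 0.00129), and 3.12-fold in S351A, at -1.64 (-2.30 to -0.98, adjusted p 0.00216). Only among the 4 libraries read as male did Mgst1 miss the threshold in these 2 comparisons (-1.82 and -1.90, adjusted p 0.215 and 0.209), out of 25 alternatives each.

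Mgst3, at chr1:167371966-167393841 on the minus strand, went the other way. It stood at 31.1, 53.9 and 26.0 CPM in cont., at 119, 205 and 204 CPM in Atg7-KO and at 68.9, 82.0 and 81.4 CPM in S351A. The 3 groups did not overlap, again with S351A in the middle. The log2 fold change of Mgst3 was 2.26 (1.60 to 2.92, adjusted p 0.000147) in Atg7-KO, 4.78-fold, and the call held under all 25 alternatives. In S351A it was 1.07 (0.40 to 1.74, adjusted p 0.0214), and it was lost without cont. replicate 1 (0.98, adjusted p 0.0534), cont. replicate 3 (0.84, adjusted p 0.0672) or S351A replicate 2 (1.02, adjusted p 0.0734), and among female (0.60, adjusted p 0.163) and male livers alone (1.27, adjusted p 0.130).

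**Figure D3:**
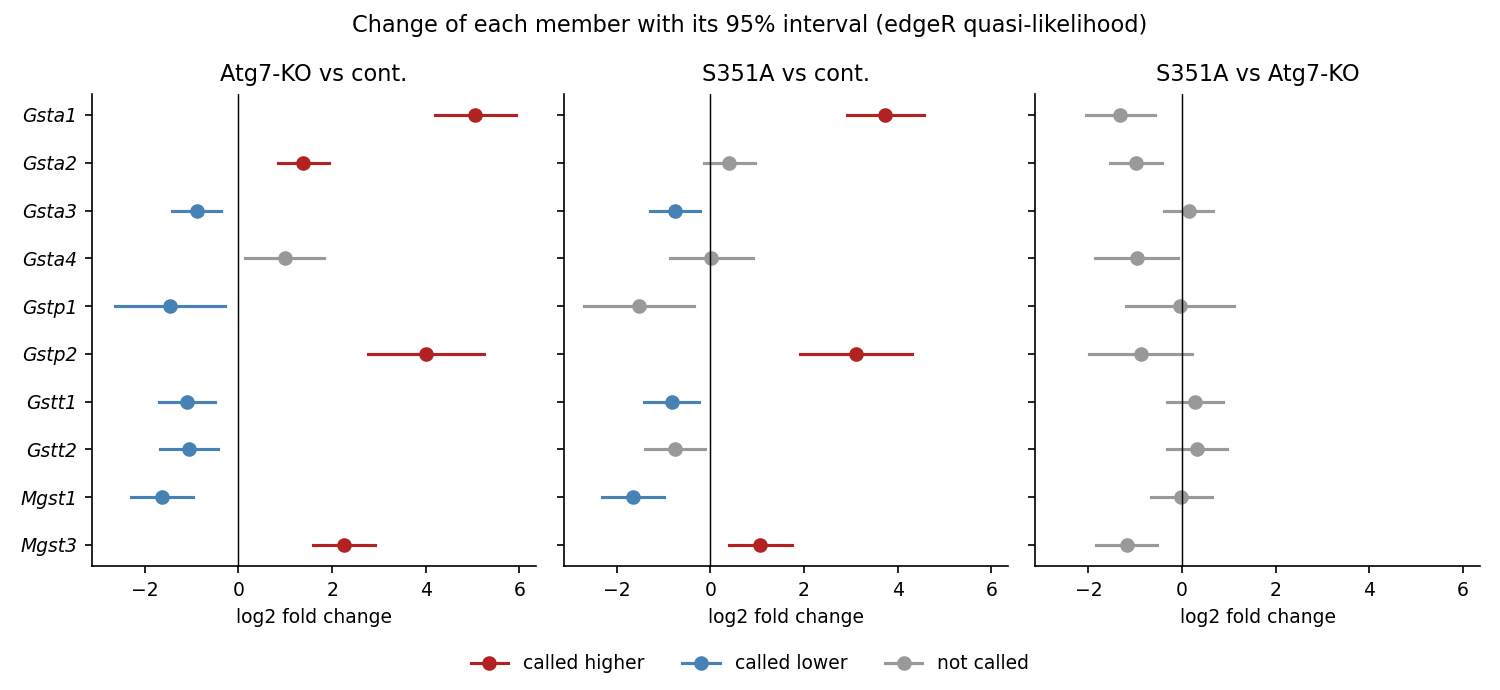
Log2 fold change of each of the 10 genes with its 95% interval in Atg7-KO against cont., S351A against cont. and S351A against Atg7-KO, by edgeR's quasi-likelihood test, in red where called higher, blue where called lower and grey where not called. In the third comparison no gene was called, and the intervals of Gsta1, Gsta2, Gsta4 and Mgst3 lay below 0.

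The comparison of S351A with Atg7-KO asks what the serine of p62 adds once autophagy is lost. None of the 10 genes was called by edgeR with the filter on low counts. The 4 genes called higher in Atg7-KO all had lower means in S351A than in Atg7-KO, and the 5 genes called lower gave log2 differences between -0.05 and 0.32. Both sets were chosen by the same Atg7-KO libraries that serve as the reference here. Such a choice tilts the differences back toward cont., so the contrast between the sets is in part built in. Gsta1 was 2.49-fold lower in S351A than in Atg7-KO, a log2 fold change of -1.32 (-2.06 to -0.58, p 0.00214, adjusted p 0.382). Mgst3 gave -1.18 (-1.84 to -0.53, p 0.00194) and Gsta2 -0.98 (-1.53 to -0.44, p 0.00199), each with adjusted p 0.382. Gsta4 gave -0.97 (-1.85 to -0.08, p 0.0355, adjusted p 0.742) and Gstp2 -0.89 (-1.99 to 0.22, p 0.106, adjusted p 0.838). Among the genes called lower in Atg7-KO, the differences were -0.05 for Gstp1 (-1.21 to 1.10), -0.01 for Mgst1 (-0.66 to 0.63), 0.14 for Gsta3 (-0.38 to 0.67), 0.28 for Gstt1 (-0.32 to 0.87) and 0.32 for Gstt2 (-0.33 to 0.96). These intervals leave room for differences in either direction.

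In S351A against Atg7-KO, edgeR's quasi-likelihood test called 0 of the 10 genes, and 4 had an unadjusted p under 0.05, all lower, where 3.21% of all genes tested did, and 0 were higher, where 3.38% did. DESeq2 called 3 of them lower (Gsta1, Gsta2 and Mgst3), where it called 0.474% of the 4646 genes to which it gave an adjusted p lower, and limma-voom called 0, with 0% of all genes lower. All 3 S351A libraries lay below all 3 Atg7-KO libraries for Gsta1, Gsta2, Gsta4, Gstp2 and Mgst3, 5 of 10 genes, where 9.23% of all genes tested did. No member lay above in all 3, where 7.67% of all genes did. The S351A values rest on shallow libraries, with 316 to 462 counts for Gsta1, 65 to 95 for Gsta2, 51 to 54 for Gsta4 and 60 to 66 for Mgst3. With all libraries thinned to the smallest total, the differences were -1.32 for Gsta1, -1.02 for Gsta2, -1.02 for Gsta4 and -1.08 for Mgst3, and none was called. Depth differed with the mutation, and thinning covers counting error only.

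Set side by side, the 2 comparisons with the shared cont. livers gave Gsta1 5.06 and 3.74, Gstp2 4.00 and 3.11 and Mgst3 2.26 and 1.07 in Atg7-KO and S351A. The same pair of values was -1.63 and -1.64 for Mgst1, -0.89 and -0.75 for Gsta3 and -1.10 and -0.82 for Gstt1.

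Levels can be compared between genes only per length, and CPM was divided by the kilobases of annotated exon. In cont., Mgst1 made up 53.4% ± 12.5 (SD, n = 3) of the summed level of the 10 genes and Gstp1 31.7% ± 18.0, and the 4 alpha genes together 6.30% ± 1.01. In Atg7-KO the alpha class made up 39.8% ± 3.65 and Gsta1 alone 30.5% ± 3.50, ahead of Mgst1 at 21.5% ± 1.83, Gstp1 at 17.2% ± 2.58 and Gstp2 at 13.4% ± 1.61. In S351A the order was Mgst1 at 30.0% ± 8.65, Gstp1 at 23.7% ± 3.34 and Gsta1 at 17.7% ± 2.96, with 26.4% ± 2.84 for the alpha class. Divided by the longest transcript instead, Gsta1 held 12.5% ± 2.18 in S351A, and by the transcript of longest coding sequence 11.6% ± 2.12. The lower places of this order (Gsta2, Mgst3, Gstt1, Gsta4 and Gsta3 in Atg7-KO, from 4.44% down to 2.22%) lay close together. Their order and the first place in Atg7-KO depend on the length used: with the transcript of longest coding sequence Gsta3 held 4.34% ± 0.530, the highest of these 5, and with the longest transcript, Mgst1 held 25.8% ± 1.92, Gsta1 23.2% ± 3.10 and Gstp1 22.5% ± 2.91, which overlap. The class shares depend on the length as well. In Atg7-KO the alpha class held 32.1% ± 3.38 with the longest transcript, where the pi class held 35.5% ± 3.83. With the transcript of longest coding sequence these were 32.4% ± 3.09 and 33.5% ± 3.61. In S351A the alpha class held 20.4% ± 2.11 and 21.9% ± 2.00 with these 2 lengths. The summed level ran from 3199 to 7177 CPM per kb of annotated exon in cont., from 3193 to 4203 in Atg7-KO and from 2409 to 2829 in S351A.

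**Figure D4:**
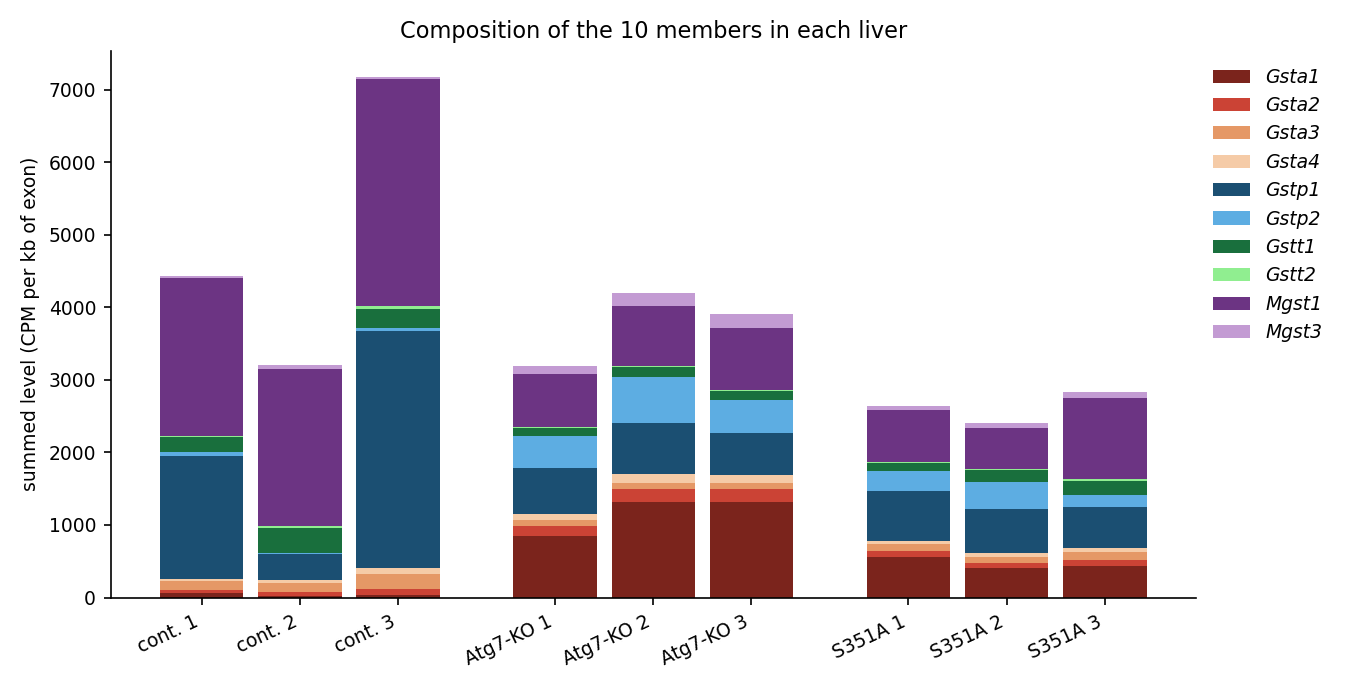
Summed level of the 10 genes in each liver in CPM per kb of exon, stacked by gene from 0. Mgst1 and Gstp1 make up most of each cont. bar, Gsta1 30.5% of the Atg7-KO bars on average and 17.7% of the S351A bars. The shares depend on the length used.

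Promoter sequences from RefSeq (GRCm38.p6), 250 bases upstream of the start, were found for 8 of the 10 genes. They were searched on both strands for TGACNNNGC and TGAGNNNGC, the core letters of the antioxidant response element to which NRF2 binds. Of 32851 mouse promoter windows of this length, 10.2% held the first form, 14.4% the second and 23.0% at least 1. The 8 genes had 9 windows, since Mgst1 has 2 annotated starts. A match was found in 5 of the 9 windows, 1 each of Gsta3, Gstp1, Gstp2, Gstt1 and Mgst1, and not in the other Mgst1 window or in those of Gsta1, Gsta2 and Mgst3. Of these 5 genes Gstp2 alone was called higher in Atg7-KO and the other 4 were called lower, with the limits given above for Gstp1. The 3 windows printed here are those of the pi pair, whose 2 genes had log2 fold changes of opposite sign over all libraries, and of Gsta1, which rose most, with matches in capitals, 5′ to 3′ on the strand of the gene.
Gstp1 promoter, chr19:4037913-4038162, minus strand: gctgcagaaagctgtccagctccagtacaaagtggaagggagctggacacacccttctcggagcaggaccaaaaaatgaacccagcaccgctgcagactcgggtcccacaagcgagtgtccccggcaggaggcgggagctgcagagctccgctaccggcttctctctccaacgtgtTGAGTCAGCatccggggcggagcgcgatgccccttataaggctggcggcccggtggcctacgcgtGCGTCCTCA
Gstp2 promoter, chr19:4042222-4042471, minus strand: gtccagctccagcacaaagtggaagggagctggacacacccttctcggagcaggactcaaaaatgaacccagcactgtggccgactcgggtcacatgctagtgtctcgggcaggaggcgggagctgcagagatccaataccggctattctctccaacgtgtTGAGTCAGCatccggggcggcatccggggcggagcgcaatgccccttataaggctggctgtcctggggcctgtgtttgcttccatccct
Gsta1 promoter, chr9:78230419-78230668, + strand: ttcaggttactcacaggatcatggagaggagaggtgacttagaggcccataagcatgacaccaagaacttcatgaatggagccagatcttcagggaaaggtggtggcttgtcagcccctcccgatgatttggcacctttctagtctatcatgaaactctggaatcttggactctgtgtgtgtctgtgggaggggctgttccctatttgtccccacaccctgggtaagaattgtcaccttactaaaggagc
The pi windows were 78.1% identical and both held TGAGTCAGC, beginning 74 bases before the start in Gstp1 and 89 bases in Gstp2. The Gstp1 window held a further match on the opposite strand, 9 bases before the start. These matches describe letters only, and a window without them says nothing about more distant sequence.

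The other genes of the pathway came from lists of family and pathway members. Of 22 other glutathione transferases and related genes, 19 had a row and 14 were tested. Of these 14, 8 rose and 5 fell in Atg7-KO, beside 19.9% and 18.1% of all genes tested. In S351A 7 of the 14 rose and 5 fell, beside 15.6% and 13%. The mu-class gene Gstm3 changed most, with a log2 fold change of 4.50 (adjusted p 7.13e-07) in Atg7-KO and 4.00 (adjusted p 3.38e-06) in S351A. The other mu-class genes, which lie together in a cluster, went both ways: in Atg7-KO, Gstm1 rose by 1.91 (adjusted p 0.00012), Gstm2 by 1.08 (0.00539), Gstm4 by 2.20 (0.00016) and Gstm5 by 1.35 (0.0205), while Gstm6 gave -1.37 (0.000822) and Gstm7 -0.76 (0.0126). Gstm3 apart, the S351A values were 1.35, 0.79, 1.45 and 0.49 for the 4 that rose, with Gstm5 not called, and -1.28 and -0.60 for Gstm6 and Gstm7, with Gstm7 not called. Windows shared between mu-class genes were not looked for, so how far their counts depend on a split of reads was not tested.

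The mitochondrial and peroxisomal Gstk1 was lower at -1.51 (adjusted p 0.00281) in Atg7-KO and -1.33 (0.0117) in S351A, and Gstz1, an enzyme of tyrosine breakdown, at -1.31 (0.000676) and -0.92 (0.00857). Gsto1, the omega-class gene, gave -0.75 (0.0692) in Atg7-KO and -1.62 (0.00514) in S351A. The genes of prostaglandin and leukotriene synthesis were low in cont., at 0.64 to 2.51 CPM for Hpgds, at most 3.23 CPM for Ptges and 0.63 to 1.41 CPM for Alox5ap. They were called higher in both comparisons, with log2 fold changes of 3.20 and 2.63 for Hpgds, 3.08 and 2.28 for Ptges and 1.96 and 2.76 for Alox5ap.

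**Figure D5:**
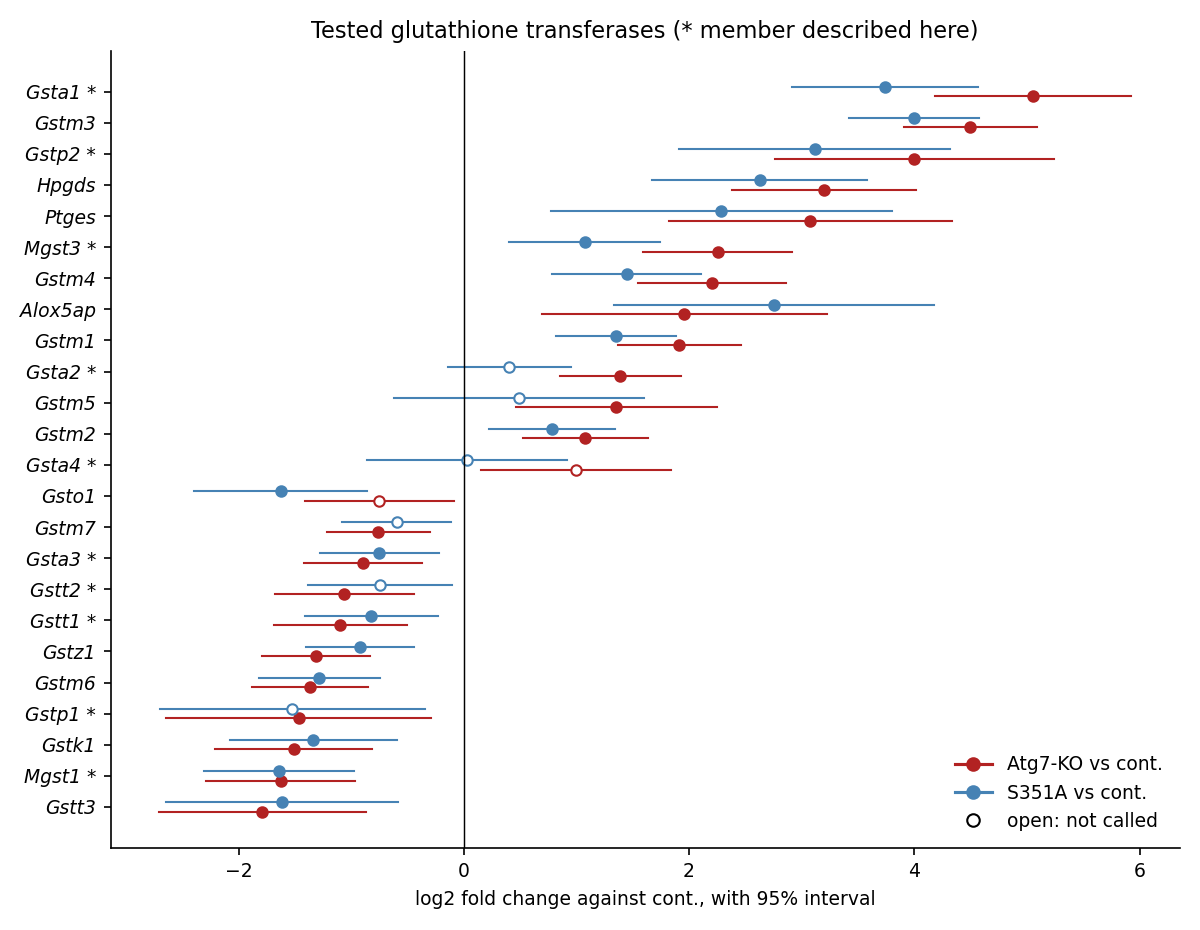
Log2 fold change with its 95% interval for the 10 genes (starred) and the 14 other tested transferases and related genes, ordered by the value in Atg7-KO, in red for Atg7-KO and blue for S351A, both against the same cont. livers, with open points where not called. Gsta1, Gstm3 and Gstp2 stand at the top and Gstt3, Mgst1 and Gstk1 at the bottom.

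Of 13 genes that supply or recycle glutathione, 10 rose and 1 fell in Atg7-KO, beside 19.9% and 18.1% of all genes tested. In S351A 7 rose and 1 fell, beside 15.6% and 13%. Slc7a11, which imports cystine for glutathione synthesis, was the highest riser, with at most 3 counts in each cont. library, 133 to 227 CPM in Atg7-KO and 7.40 to 118 CPM in S351A. Gpx1, a glutathione peroxidase, was the gene called lower, at -1.32 (adjusted p 0.0077) in Atg7-KO and -1.18 (adjusted p 0.0188) in S351A. Gclc, the catalytic subunit of the rate-limiting enzyme, was picked after its values were seen. It rose by 1.30 (adjusted p 0.00168) in Atg7-KO and gave 0.39 (adjusted p 0.272) in S351A. Of 15 tested genes for export and further processing of conjugates, 5 rose and 4 fell in Atg7-KO, beside the same 19.9% and 18.1% of all genes. Ggt1, which cleaves the glutamyl residue from conjugates, rose most in Atg7-KO, by 5.96 (adjusted p 0.000126) from levels of at most 2.54 CPM in cont., and the exporter Abcc4 rose most in S351A, by 4.50 (adjusted p 9.52e-06). Ccbl1, a cysteine conjugate lyase, was lowest in both, at -2.22 (adjusted p 0.000386) and -2.05 (adjusted p 0.0012).

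Of 10 genes of the KEAP1-NRF2 system itself, 1 was called higher in Atg7-KO (Maff, 2.05, adjusted p 0.00361) and 0 lower by edgeR, and 3 had an unadjusted p under 0.05. In S351A, Mafk was called higher (0.67, adjusted p 0.0469) and Rbx1 lower (-0.91, adjusted p 0.0262), beside 15.6% and 13% of all genes. In Atg7-KO against cont., Nfe2l2, which encodes NRF2, gave -0.77 (adjusted p 0.0782), Keap1 0.28 (adjusted p 0.335) and Sqstm1, which encodes p62, 0.38 (adjusted p 0.169). The same genes gave -0.85 (adjusted p 0.0793), 0.07 (adjusted p 0.862) and -0.05 (adjusted p 0.875) in S351A against cont. Of 10 tested xenobiotic receptors and their standard targets, 3 were called lower in Atg7-KO, where 18.1% of all genes were. The lowest of these 3 was Cyp3a11 (-3.20, adjusted p 0.000727). The other 2, Nr1i3 and Ppara, are named after their values were seen.

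Markers of liver cell types moved with the same groups. Of 8 hepatocyte markers 7 were called lower in Atg7-KO and 6 in S351A, and their summed level ran from 48756 to 106292 CPM in cont., from 31759 to 39317 CPM in Atg7-KO and from 29879 to 45134 CPM in S351A, with no marker at 0. Of 8 pericentral hepatocyte markers 7 and 5 were called lower, and the sum ran from 6234 to 12589 CPM, from 1724 to 2131 CPM and from 1857 to 3290 CPM in the same order. Of 9 tested ductular markers 8 were called higher in each comparison, with sums from 82.4 to 131 CPM in cont., from 916 to 1313 CPM in Atg7-KO and from 834 to 1314 CPM in S351A. Of 15 macrophage markers 10 rose and 1 fell in Atg7-KO, with sums from 265 to 425 CPM, from 533 to 670 CPM and from 432 to 473 CPM. The part of cell composition in the levels of the 10 genes was not tested.

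Likeness of pattern was measured as Pearson's r of log2 CPM over the 9 libraries, for the gene of each class with the highest mean level over the 3 groups. The genes most like Gsta1 were Gria3 (r = 0.997), Elovl7 (r = 0.993) and Gipc2 (r = 0.991). Those most like Gstp1 were Lrrc16a (r = 0.978), Cml5 (r = 0.965) and Bpnt1 (r = 0.953), those most like Gstt1 were Gpt (r = 0.991), Gpcpd1 (r = 0.990) and Ndrg2 (r = 0.989), and those most like Mgst1 were Cox6c (r = 0.993), Adk (r = 0.992) and Copa (r = 0.987). The 9 points share 3 genotypes and their libraries' depth, so these values describe the pattern across groups.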

How the data were processed

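The deposited values are expected counts per gene, which the authors made from 75-base single-end reads by STAR alignment to mm10 and RSEM (tool versions, annotation and strand setting are not given in the sources used here). Such estimates divide reads shared by near-identical genes, and between 4.40% and 7.75% of the values in a library were not whole. They were rounded and analysed with edgeR 4.0.16 in R 4.3.3, with filterByExpr (minimum count 10, minimum total 15), TMM scaling, and 1 quasi-likelihood model of 3 groups over 9 libraries, Benjamini-Hochberg adjustment over 11199 genes and a prior count of 2 for log2 CPM. Samples were grouped by their titles. All 10 members were named, with every other tested transferase, and of other lists the called gene with the largest change in each direction per comparison, plus Nfe2l2, Keap1, Sqstm1 and Atg7. The members and lists were chosen with earlier results of these data known. Positions and coding sequences came from GENCODE M21 for mm10. The fit was tested on simulated data. Alternatives included DESeq2 1.42.0 and limma-voom (limma 3.58.1). Intervals are at the 95% level. PCR copies of a molecule cannot be recognised in these reads, so counting limits cover counting error only. The sequencing depth was lowest in S351A, where low counts limit the precision of single values.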

Additional observations from a re-analysis of the deposited data

Results flagged for a closer look

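Gstp1 moved in opposite directions against cont. in libraries read as male and as female, in both genotypes with Cre. The difference of its log2 change between the sexes (male minus female) was -2.80 in Atg7-KO and -2.52 in S351A. Every library with Cre read as male was lower than both male cont. libraries, and every one read as female was higher than the single female cont. library. The interaction, fitted over all genes with edgeR's quasi-likelihood test, had p 0.00233 in Atg7-KO and p 0.00429 in S351A, with adjusted p 0.543 and 1.00. Of 11199 genes, 3 passed the threshold for this term in Atg7-KO and 0 in S351A. The term was fitted because of the pattern it describes, and it rests on arms of 1 library, namely 1 female cont., 1 male Atg7-KO and 1 male S351A library, so it is no independent support.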

How the results depend on the processing

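Of 750 values, 10 genes in 3 comparisons under 25 alternatives, 640 stayed on the same side of the threshold in the same direction, 63 lost and 29 gained a call, and 18 changed sign. The count of genes called lower in Atg7-KO against cont. was 5. It was 1 with total library size, 1 without the 20 most abundant genes in the library size, 3 among female livers and 0 among male livers, and it ran from 3 to 5 when 1 library was left out (12.9% to 18.6% of all genes). The total library size and the library size without the 20 genes shifted the median of all log2 fold changes by 0.545 and 0.435, and called 38.3% and 33.7% of all genes higher and 7.15% and 8.72% lower in Atg7-KO, against 19.9% and 18.1% with TMM scaling. In S351A against cont. they called 31.2% and 27.1% higher and 4.57% and 5.7% lower, against 15.6% and 13%. The fits of female and male livers called 14.3% and 3.37% of all genes lower in Atg7-KO. In S351A against cont. the count of 3 genes called lower became 1 with either scaling, 5 without a filter, 1 with the 6 compared libraries alone and 0 among male livers, where the last 3 fits called 10.7%, 7.8% and 2.45% of all genes lower, and it ran from 1 to 4 when 1 library was left out (7.57% to 14.1% of all genes). In S351A against Atg7-KO the count of 0 genes called lower became 3 without a filter, 3 with DESeq2 and 1 among female livers, where these fits called 0.194%, 0.474% and 0.0625% of all genes lower. The count of 4 genes called higher in Atg7-KO was 4 or 5 under most alternatives, where 14% to 38.3% of all genes were called higher. It was 3 with the alpha cluster summed, and fell to 2 with the copies summed, where Gsta1 and Gsta2 count once and the summed pi pair was not called. Each of these summed fits called 19.9% of all genes higher.

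The sign changed under at least 1 alternative for 6 of the 10 genes. Gsta4 in S351A against cont. gave -0.10 without a filter and -0.31 among male livers, and between -0.28 and 0.86 when 1 library was left out. Gstp2, summed with Gstp1, gave -0.84 in Atg7-KO and -1.14 in S351A. Gstp1 gave 0.83 and 0.68 among female livers. In S351A against Atg7-KO the main values were -0.05 for Gstp1, -0.01 for Mgst1, 0.28 for Gstt1 and 0.32 for Gstt2. There Gstp1 gave 0.088 among male livers and between -0.14 and 0.025 without 1 library. Mgst1 gave 0.0017 among female livers and between -0.34 and 0.20 without 1 library, and Gstt1 and Gstt2 -0.11 and -0.086 among male livers. The cause of these changes was not tested.

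With the replicate number as a block, 5 genes rose and 4 fell in Atg7-KO (20.5% and 18% of all genes), 3 and 4 in S351A against cont. (16.6% and 13.8%), and 0 in S351A against Atg7-KO. Gstp1 lost and Gsta4 gained the call in Atg7-KO, and Gstt2 gained it in S351A. The numbers were not taken as pairs, since the labels do not say what they mean. Deviations of same-numbered libraries correlated between -0.041 and 0.306, and 6 of 9 libraries correlated best with their own number. In every group replicate 1 was read as male and replicate 2 as female. The number thus goes in part with sex, and the 2 cannot be told apart in these values. Depth limits the S351A values, where Gsta4 rests on 51 to 54 counts a library. Male and female fits leave 1 library in an arm, which is assumed to vary like the others, so their counts are descriptions.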

Other observations

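Other cell type lists held called genes as well, beside 19.9% higher and 18.1% lower among all genes in Atg7-KO and 15.6% and 13% in S351A. Of 9 tested stellate cell markers 6 were called higher in Atg7-KO and 6 in S351A against cont., with summed levels from 293 to 595 CPM in cont., from 1332 to 1794 CPM in Atg7-KO and from 1204 to 1730 CPM in S351A. Of 9 tested proliferation genes 9 were called higher in Atg7-KO and 7 in S351A. Of 7 periportal hepatocyte markers 5 were called lower in Atg7-KO and 3 in S351A. Of 8 endothelial markers 1 was called higher and 3 lower in Atg7-KO, and of 3 tested erythroid genes 2 were called lower in each comparison.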
